A study of Homo sapiens with 4 samples.

Results

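Receptor tyrosine kinases, including the receptors that Sorafenib is known to bind, were followed in Sorafenib-treated cells labelled as a liver cancer line. The set held 51 genes chosen by symbol, among them the VEGF, PDGF, ERBB, HGF, FGF, insulin, TAM, discoidin domain, Eph, ROR and TIE receptors, and all 51 symbols were found among the 28278 genes of the count table. A receptor tyrosine kinase spans the plasma membrane, binds a ligand outside the cell, pairs with another receptor and phosphorylates tyrosines on its own tail, which adaptor proteins read to start the RAS-MAPK and PI3K cascades. Sorafenib is a small molecule that blocks RAF kinases and several of these receptors, chiefly VEGF receptors, PDGF receptors, KIT, FLT3 and RET. In liver tissue, MET, EGFR, FGFR4 and the insulin receptor are best known from hepatocytes, whereas VEGF and PDGF receptors are best known from endothelial and stellate cells.

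Polyadenylated RNA was sequenced from cells labelled HepG2, a human liver cancer cell line. Control libraries (n = 2) came from cells carrying lentiviral Cas9 and a control sgRNA, and sgUSP22 libraries (n = 2) from cells carrying lentiviral Cas9 and an sgRNA against USP22, a deubiquitinase of histone H2B and other proteins. Each kind of cell was kept as a stable population, and all 4 libraries came from cells given 10 µM Sorafenib for 24 h, so that the comparison tells nothing about the drug itself. The labels do not say whether the libraries of a group came from separate cultures, and p-values therefore measure only the spread between these libraries, which may be technical.

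Library totals lay between 62030307 and 64728272 counts, and 3 counts equalled 0.0456 to 0.0492 CPM, the count scaled to the effective library size. USP22 itself, the targeted gene, was counted 16450 and 16537 times in control and 20279 and 20368 times in the libraries labelled sgUSP22 (log2 fold change 0.22 ± 0.034 SE, edgeR adjusted p = 0.000394). Its mRNA was therefore not lower where the label says knockout, and every direction given here follows the label alone. Of 20 hepatocyte and HepG2 marker genes, 11 were listed at 0 in all 4 libraries (among them ALB, APOA1, APOB and TTR), 7 were at trace level and 2, CEBPA and ASGR1, were expressed, and the summed level of the list was 8.78 to 9.79 CPM in control and 8.95 to 10.3 CPM in sgUSP22 libraries. Defining markers of the labelled cell line were thus largely absent, and the cells are called by their label only. Among markers of other cell types, the endothelial PECAM1 had at most 6 counts, the leukocyte PTPRC at most 4 and CD3E was listed at 0. The leukocyte list's CD68 was expressed, and the fibroblast and stellate list was high in sum, as given below beside DDR2 and PDGFRB. KRT8, KRT18 and VIM, by contrast, were abundant in all 4 libraries. Of the 6 epithelial markers, 3 were expressed, 1 was at trace level and 2 were listed at 0. All 5 mesenchymal markers were expressed.

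Many of the receptors were barely detected. A receptor was called expressed when it reached 1 CPM in both libraries of at least one group, and 27 of the 51 did, against 45% of all genes in the table. At trace level stood 13 receptors, with 22 counts at most (EPHA3 in a control library) and no more than 14 in any other. The remaining 11 were listed at 0 in every library: KDR, FLT3, KIT, PDGFRA, RET, FGFR2, EPHA5, EPHA7, EPHB1, TIE1 and MUSK. Over the whole table, 36.4% of genes had no more than 3 counts in any library. MERTK and EPHB3 reached 1 CPM in the sgUSP22 libraries only. A count of 0 allows up to 3 counts by counting error, and because counts were derived from assembled coverage it says only that the gene was listed at 0.

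The receptors best known as direct Sorafenib targets were mostly among the silent ones. Of 12 such genes, 5 were expressed (PDGFRB, CSF1R, FGFR1, DDR1 and DDR2), 5 were listed at 0 throughout (KDR, FLT3, KIT, PDGFRA and RET) and 2 were at trace level. FLT1, the decoy-like VEGF receptor, had 5 counts in control replicate 2 and 0 elsewhere, and FLT4, the lymphatic VEGF receptor, had 4 counts in control replicate 1 and 0 elsewhere. No VEGF receptor was therefore expressed by the 1 CPM criterion in either group. VEGFA, the ligand of KDR and FLT1, was abundant in the same libraries, with 17323 and 18128 counts in control and 16516 and 16413 in sgUSP22 libraries. KITLG, the ligand of KIT, likewise had 3568 and 3866 counts against 4381 and 4370 although KIT was listed at 0. Ligands of other receptors were missing instead: HGF, which activates MET, and IGF1, which activates IGF1R, were listed at 0 in all 4 libraries.

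To compare levels between genes, counts were scaled to the library total and divided by the length of the gene's merged exons. These values are called CPM per kilobase, although CPM elsewhere was scaled to the effective library size. EPHA2, a receptor for ephrin-A ligands, had the highest mean level over the 4 libraries at 59.0 (range 46.9 to 71.6). AXL, a TAM receptor activated by GAS6, followed at 53.2 (39.2 to 67.5), then EGFR at 36.3 (35.0 to 38.2) and MET, the HGF receptor, at 32.8 (27.8 to 38.3). The ranges of EPHA2 and AXL overlapped, as did those of EGFR and MET. The lowest AXL value (39.2) lay just above the highest EGFR value (38.2). Scaling to the effective library size would make these ranges overlap. A gap separated MET from EPHB4, the receptor of ephrin-B2, at 12.3, which was followed by ROR2 at 9.84, IGF1R at 9.55, DDR1 at 9.27, RYK at 9.0 and FGFR4 at 7.69. Between 4.43 and 2.63 stood TYRO3, ERBB2, MST1R, PTK7, INSR and FGFR1, and from 1.39 down to 0.221 stood FGFR3, ROR1, ERBB3, PDGFRB, EPHB2, DDR2, CSF1R, ERBB4, MERTK, EPHA10 and EPHB3. Of the 26 neighbouring pairs in this order, 17 overlapped in range and 9 did not. The order depends on the length used: with the longest transcript in place of merged exons, EGFR stood at 58.4 rather than 36.3 and ahead of AXL at 57.9, with EPHA2 at 61.9 and MET at 34.4.

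**Figure D1:**
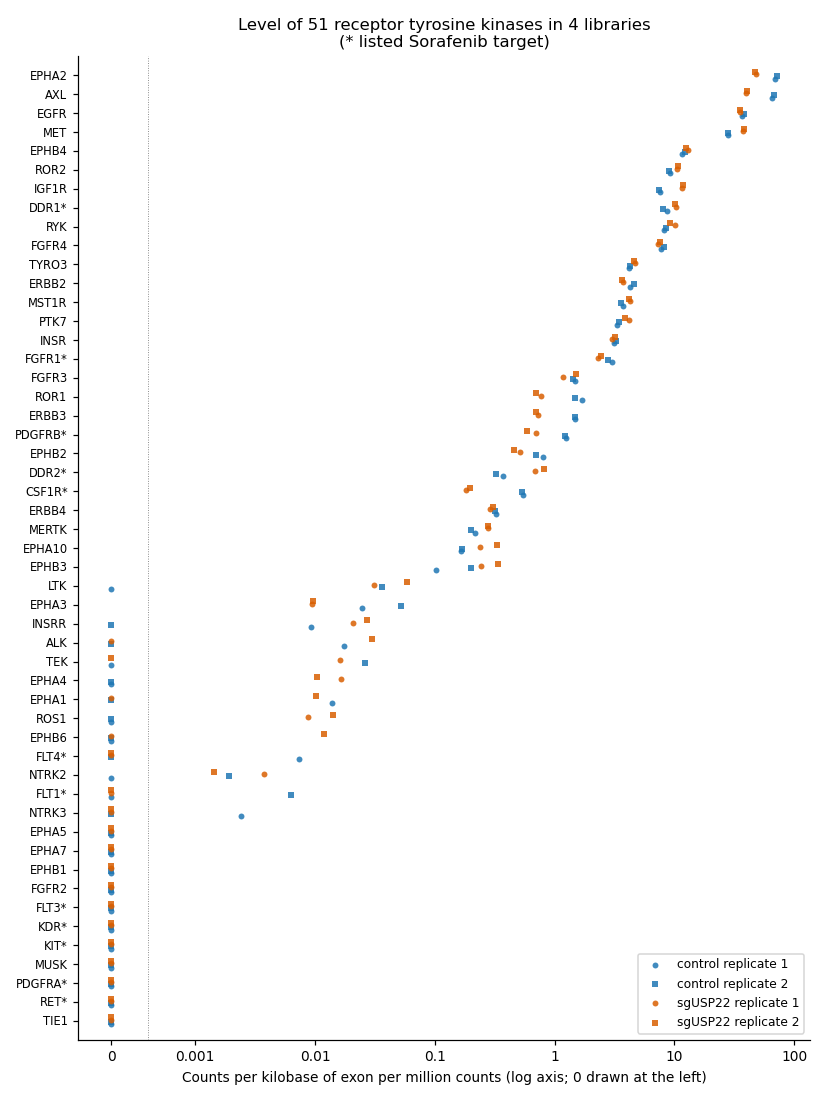
Level of each of the 51 receptors in CPM per kilobase of merged exons, scaled to library totals (log axis, 0 drawn at the left). A point is drawn for each of the 4 libraries, coloured by group. EPHA2, AXL, EGFR and MET lie above the other receptors, with means of 59.0, 53.2, 36.3 and 32.8. Among expressed receptors the lowest mean is that of EPHB3 at 0.221, and receptors at trace level or 0 lie below it.

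Promoter sequence is shown for 4 receptors that mark the extremes of these levels and of the comparison below: EPHA2 and AXL, the most abundant, DDR2, which was higher in sgUSP22 libraries, and KDR, which was listed at 0. Each is the RefSeq window from 250 bases before to 50 bases after the annotated start (GRCh38.p14), printed 5′ to 3′ on the gene's strand, at chr1:16156020-16156319 (minus strand) for EPHA2, chr19:41218973-41219272 (plus) for AXL, chr1:162630613-162630912 (plus) for DDR2 and chr4:55125546-55125845 (minus) for KDR. The RefSeq start of DDR2 lies upstream of the gene start in the GENCODE annotation used for positions. Capitals mark the GC box GGGCGG, on either strand, the core motif bound by SP1-type factors.
EPHA2: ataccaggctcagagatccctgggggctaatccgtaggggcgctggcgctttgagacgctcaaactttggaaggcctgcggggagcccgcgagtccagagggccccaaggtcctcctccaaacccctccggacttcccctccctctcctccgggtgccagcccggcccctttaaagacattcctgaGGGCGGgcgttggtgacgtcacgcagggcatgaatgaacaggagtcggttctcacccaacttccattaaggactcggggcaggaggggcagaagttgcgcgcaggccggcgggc
AXL: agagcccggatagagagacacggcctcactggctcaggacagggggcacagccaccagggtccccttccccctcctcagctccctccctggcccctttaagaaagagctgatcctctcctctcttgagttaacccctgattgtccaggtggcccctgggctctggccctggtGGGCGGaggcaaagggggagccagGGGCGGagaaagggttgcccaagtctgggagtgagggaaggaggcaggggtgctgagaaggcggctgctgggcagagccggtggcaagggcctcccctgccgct
DDR2: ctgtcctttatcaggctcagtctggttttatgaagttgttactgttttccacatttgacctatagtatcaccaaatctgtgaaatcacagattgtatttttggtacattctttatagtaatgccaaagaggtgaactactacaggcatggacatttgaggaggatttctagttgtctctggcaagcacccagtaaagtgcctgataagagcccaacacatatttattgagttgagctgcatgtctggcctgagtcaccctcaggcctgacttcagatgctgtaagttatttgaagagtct
KDR: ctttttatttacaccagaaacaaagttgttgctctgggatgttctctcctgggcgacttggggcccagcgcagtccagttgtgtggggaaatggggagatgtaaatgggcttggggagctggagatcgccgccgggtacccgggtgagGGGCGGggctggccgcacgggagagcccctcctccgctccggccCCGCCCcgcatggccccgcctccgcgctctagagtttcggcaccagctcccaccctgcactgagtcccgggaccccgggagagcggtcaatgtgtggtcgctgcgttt

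The windows held 1 GC box for EPHA2, 2 for AXL, 2 for KDR and 0 for DDR2. KDR, listed at 0, thus carried as many GC boxes as AXL. Over the 46 receptors matched to a RefSeq promoter, 34 windows (73.9%) held at least 1 GC box, compared with 44.6% of all 27305 promoter windows of that length. Among expressed receptors the count was 20 of 24 (83.3%), and among receptors at trace level or 0 it was 14 of 22 (63.6%). The TATA box TATAAA, on either strand, was found in 2 receptor windows (4.35%), of which DDR2 was one, against 12% of all windows. Expressed receptors had a median of 30 CpG dinucleotides per window and silent or trace receptors 19, with 14 over all promoters, whereas the DDR2 window had 0 CpG and 41% GC. Other motifs searched on both strands were the E-box CACGTG, in 4.35% of receptor windows against 7.43% of all, and the AP-1 motif TGANTCA, in 10.9% against 7.76%. These are matches of letters within one window per gene and describe no binding.

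The comparison of sgUSP22 with control asks how the receptor repertoire of Sorafenib-treated cells differed with the USP22 sgRNA. A gene was called when its edgeR adjusted p was under 0.05 and it changed at least 1.5-fold. Low counts left 28 receptors to test, the 27 expressed ones and EPHA3, which passed only through its control libraries. Of these 28, 7 were lower in sgUSP22 libraries (PDGFRB, CSF1R, ERBB3, AXL, EPHA2, EPHB2 and ROR1) and 2 were higher (DDR2 and EPHA10). Over all 15150 tested genes, 7.25% were called lower and 8.88% higher, and the share of receptors was 25% lower and 7.14% higher. In either direction 16.1% of all tested genes were called, or 16.5% of the 12724 expressed ones (9.17% higher and 7.34% lower), against 32.1% of the tested receptors. The median log2 fold change was −0.11 over the 28 receptors and 0.0009 over all tested genes, and the median absolute log2 fold change was 0.35 and 0.29. Without the fold threshold 10 receptors were lower and 8 higher, with 25.8% and 26.8% of all tested genes as background. The groups did not overlap in 26 of the 28, beside 75.9% of all tested genes (38.3% higher and 37.6% lower), so separation of the groups was common throughout these libraries. Summed over the 51 receptors, control libraries had 2155 to 2205 CPM and sgUSP22 libraries 1978 to 1982 CPM. In bulk RNA, fewer cells of a kind and less RNA per cell cannot be told apart.

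**Figure D2:**
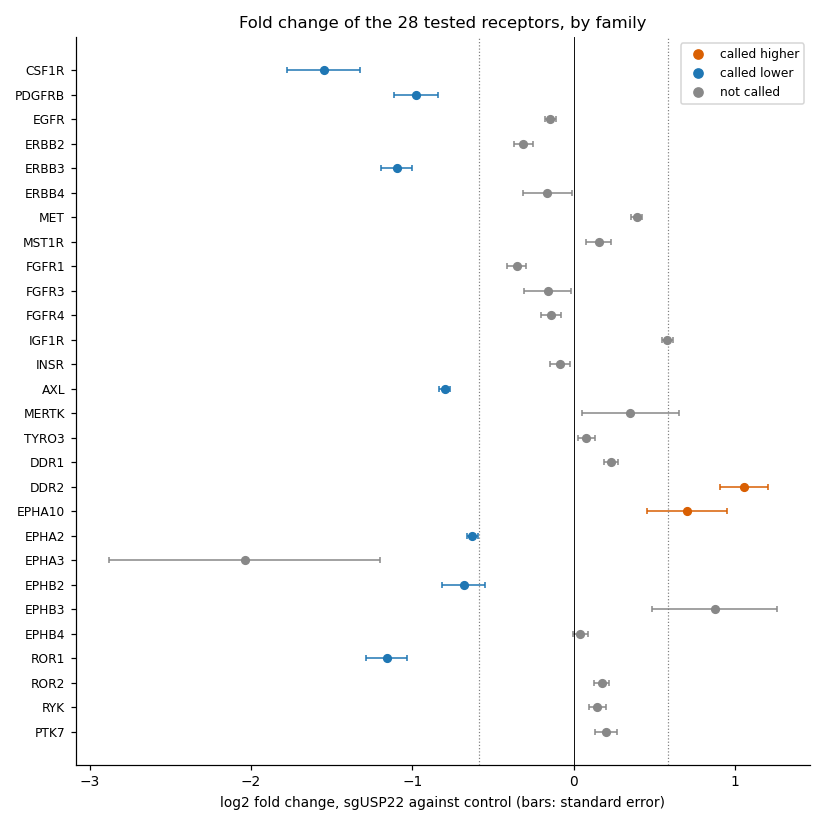
Log2 fold change of sgUSP22 over control (points) with its standard error (bars) for the receptors tested, grouped by family and coloured by call. PDGFRB, CSF1R, ERBB3, AXL, EPHA2, EPHB2 and ROR1 were called lower, from −1.55 for CSF1R to −0.63 for EPHA2, and DDR2 (1.06) and EPHA10 (0.71) were called higher.

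Of the 4 receptors at the top of the level order, AXL and EPHA2 fell and EGFR and MET stayed under the fold threshold. AXL had 20962 and 22037 counts in control and 13036 and 13058 in sgUSP22 libraries, or 348 ± 6.69 against 200.3 ± 2.75 CPM (mean ± SD, n = 2 each). The control values were above both sgUSP22 values by far more than either group's spread (log2 fold change −0.80 ± 0.035 SE, edgeR adjusted p = 1.58e-07). EPHA2 had 17892 and 18864 counts against 12843 and 12283, which is 298 ± 6.33 against 193 ± 3.66 CPM, again with no overlap (−0.63 ± 0.036, adjusted p = 7.68e-07). The EPHA2 change lies near the 1.5-fold limit and dropped below it with library-size scaling alone (−0.58) and after correction for GC content and length (−0.47). EGFR, the EGF receptor, had 36198 and 38736 counts against 36086 and 35541 and was lower by a small amount (−0.14 ± 0.034, adjusted p = 0.00515). MET was higher in both sgUSP22 libraries, with 17393 and 17505 counts against 12436 and 12773 (0.39 ± 0.035, adjusted p = 1.08e-05), also short of 1.5-fold.

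The balance among these 4 receptors differed accordingly. Levels per kilobase were scaled to library totals, unlike the CPM values and fold changes above. In CPM per kilobase, control libraries ran in the order EPHA2 (70.6 ± 1.39), AXL (66.7 ± 1.18), EGFR (37.4 ± 1.13) and MET (27.8 ± 0.0334), and sgUSP22 libraries in the order EPHA2 (47.4 ± 0.706), AXL (39.7 ± 0.708), MET (37.8 ± 0.8) and EGFR (35.1 ± 0.206), each as mean ± SD over 2 libraries. The level of AXL was 2.37 and 2.43 times that of MET in the control libraries and 1.05 times in each sgUSP22 library. Together the 4 receptors made up 70.9% of the summed per-kilobase level of the expressed receptors in control and 63.9% in sgUSP22 libraries. The order within each group and these shares hold for merged-exon length only. With the longest transcript, the mean over all 4 libraries was 58.4 rather than 36.3 for EGFR and 34.4 rather than 32.8 for MET. The places of EGFR and MET in each order therefore depend on the length used.

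**Figure D3:**
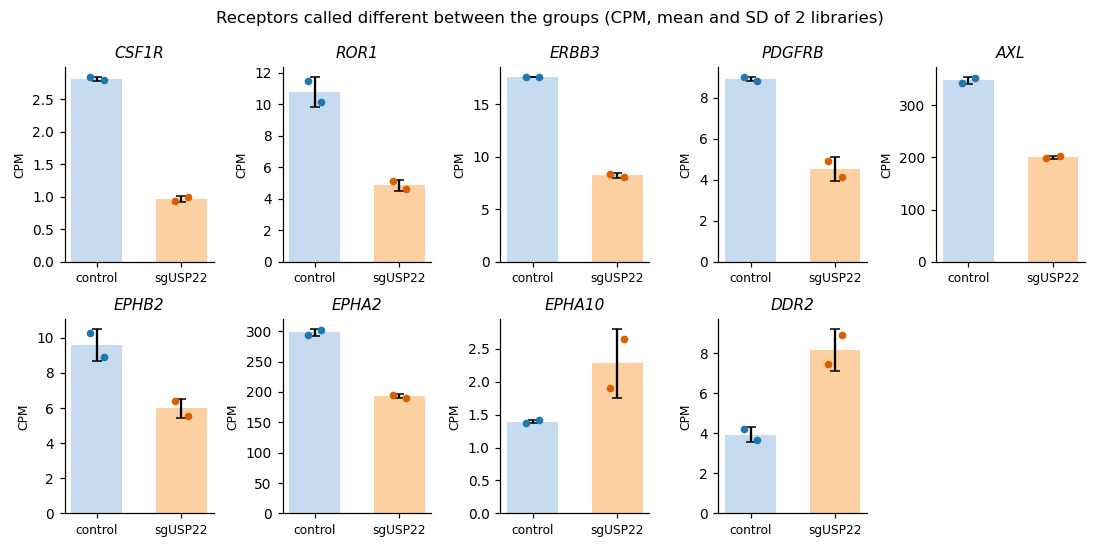
CPM of the 9 receptors called, with a point for each library and bars at the group mean with SD (n = 2 per group). In each panel the control points and the sgUSP22 points do not overlap, as for ERBB3 at 17.6 ± 0.0369 against 8.22 ± 0.233 CPM. The receptors were picked because they were called, and the groups did not overlap in 75.9% of all tested genes.

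Of the 5 expressed Sorafenib targets, 2 fell, 1 rose and 2 were not called, where 7.25% of all tested genes were called lower and 8.88% higher. PDGFRB, which binds PDGF-BB and marks stellate cells and pericytes in liver, had 548 and 551 counts in control and 324 and 266 in sgUSP22 libraries (8.91 ± 0.11 against 4.53 ± 0.573 CPM, log2 fold change −0.98 ± 0.14 SE, edgeR adjusted p = 0.000211). CSF1R, the macrophage colony-stimulating factor receptor, had 173 and 174 counts against 61 and 64, the largest fall among the receptors called (−1.55 ± 0.23, adjusted p = 0.000293). These genes are neighbours on one strand, PDGFRB at chr5:150113839-150155872 and CSF1R at chr5:150053291-150113372 (hg38, minus strand), with 466 bases between them. Reads running from PDGFRB into CSF1R could not be told apart from CSF1R's own, and whether they contributed was not tested. DDR2, a collagen receptor of mesenchymal cells at chr1:162631373-162787405 (plus strand), rose from 256 and 229 counts to 489 and 576 (3.93 ± 0.373 against 8.18 ± 1.05 CPM, 1.06 ± 0.15, adjusted p = 0.000227). DDR1, its epithelial relative, had 4889 and 4689 counts against 6073 and 5813 (0.23 ± 0.046, adjusted p = 0.00199), and FGFR1, an FGF2 receptor, 3193 and 3072 against 2553 and 2629 (−0.35 ± 0.057, adjusted p = 0.00055). Both passed the p threshold without reaching 1.5-fold.

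Beside DDR2 and PDGFRB, markers of fibroblasts and stellate cells also differed between the groups. The summed level of 7 such genes was 645 to 649 CPM in control and 902 to 903 CPM in sgUSP22 libraries. Of the 6 tested, 2 rose, the collagen-binding proteoglycans DCN (log2 fold change 3.0) and LUM (1.5), and 1 fell, the smooth muscle actin ACTA2 (−0.91), beside 16.1% of all tested genes called in either direction. COL3A1 was high in all 4 libraries, COL1A2 had at most 7 counts and THY1 at most 31. ERG, the one endothelial marker that was expressed, fell from 83 and 93 counts to 14 and 7, and the summed level of the 6 endothelial markers was 1.49 to 2.02 CPM against 0.418 to 0.472. Of 6 leukocyte markers, 1 was expressed, the lysosomal protein CD68, which fell from 4498 and 4610 counts to 3078 and 2835. The part of these markers in the receptor results was not tested.

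Of the receptors called in the remaining families, ERBB3 and ROR1 had the largest falls. ERBB3, the neuregulin receptor with little kinase activity of its own, had 1070 and 1098 counts in control and 551 and 520 in sgUSP22 libraries (log2 fold change −1.10 ± 0.095 SE, edgeR adjusted p = 9.3e-06). Its partner ERBB2, which has no known ligand, was lower by less, with 2709 and 3015 counts against 2474 and 2396 (−0.31 ± 0.059, adjusted p = 0.00156). ERBB4, the other neuregulin receptor, had 260 and 263 counts against 243 and 250 and did not pass the test (−0.16, adjusted p = 0.403), so that all 4 ERBB receptors had values below control and 1 was called. ROR1, a WNT5A receptor, had 700 and 632 counts against 335 and 296 (−1.16 ± 0.13, adjusted p = 4.7e-05), with both control libraries above both sgUSP22 libraries. Its paralog ROR2 differed in the other direction, with 3319 and 3377 counts against 4000 and 3987 (0.18 ± 0.046, adjusted p = 0.00945), though by too little to be called.

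The Eph receptors divided between the directions. EPHB2, an ephrin-B receptor, fell from 625 and 557 counts to 419 and 360 (log2 fold change −0.68 ± 0.13 SE, edgeR adjusted p = 0.00162), and without control replicate 1 it came to −0.58 and was under the fold threshold. EPHA10, a kinase-dead member, was called higher with 84 and 88 counts against 125 and 171 (0.71 ± 0.25, adjusted p = 0.0365). That call was lost in 6 of the 12 alternative settings: its adjusted p was 0.0871 without control replicate 1, 0.0778 without control replicate 2, 0.273 without sgUSP22 replicate 2 (log2 fold change 0.45) and 0.086 with DESeq2. EPHB3 had 29 and 58 counts in control and 71 and 97 in sgUSP22 libraries and did not pass (0.87, adjusted p = 0.0831), but without control replicate 2 it was called higher (1.44, adjusted p = 0.0177). EPHA3 had 10 and 22 counts against 4 in each sgUSP22 library (−2.04 ± 0.84, adjusted p = 0.066), and EPHB4 had 4655 and 4981 against 5375 and 5108 (0.04, adjusted p = 0.458). EPHA1, EPHA4 and EPHB6 had at most 8 counts in any library and were not tested.

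IGF1R, the receptor for the insulin-like growth factors, came closest to a call among receptors that rose less than 1.5-fold. It had 6499 and 6612 counts in control and 10429 and 10303 in sgUSP22 libraries, or 106 ± 0.423 against 159 ± 0.631 CPM (log2 fold change 0.58 ± 0.037 SE, edgeR adjusted p = 1.24e-06). The separation of the groups was many times the spread within them, and IGF1R crossed the fold threshold with library-size scaling alone (0.63) and without control replicate 1 (0.59). INSR, the insulin receptor of the same family, had 2084 and 2238 counts against 2119 and 2181 (−0.09, adjusted p = 0.291), and INSRR had at most 9 counts. PTK7, a kinase-dead WNT co-receptor, had 1847 and 1961 counts against 2429 and 2192 (0.20 ± 0.068, adjusted p = 0.0308). RYK, another WNT-binding pseudokinase, had 4153 and 4439 against 5304 and 4747 (0.15 ± 0.054, adjusted p = 0.0434), a direction that turned to −0.09 after correction for GC content and length.

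Of the 27 expressed receptors, 9 did not pass the adjusted p threshold. Besides ERBB4, INSR, EPHB3 and EPHB4 they were MST1R, FGFR3, FGFR4, MERTK and TYRO3. FGFR4, the FGF19 receptor of hepatocytes, had 2294 and 2497 counts in control and 2289 and 2301 in sgUSP22 libraries (log2 fold change −0.14, edgeR adjusted p = 0.0779, turning to 0.04 after correction for GC content and length), and its ligand FGF19 had at most 4 counts. FGFR3 had 442 and 435 counts against 367 and 461, with overlapping groups (−0.16, adjusted p = 0.391, or 0.0075 after the same correction). MST1R, the receptor of macrophage-stimulating protein, had 1213 and 1193 counts against 1440 and 1393 (0.16, adjusted p = 0.123). The TAM receptors TYRO3 (0.08, adjusted p = 0.224) and MERTK (0.35, adjusted p = 0.359) were not called beside AXL. MERTK had only 53 to 75 counts in any library, a depth at which small differences cannot be seen, whereas TYRO3 had 2805 to 3280.

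Genes for the ligands were examined next, as a list of 74 of which 33 were expressed and 41 tested. In sgUSP22 libraries 4 ligand genes were higher and 6 lower (24.4% of those tested, beside 16.1% of all tested genes), with a median log2 fold change of −0.14. EPGN, which encodes the EGFR ligand epigen, rose from 200 and 219 counts to 1141 and 1107 (log2 fold change 2.34 ± 0.11 SE, edgeR adjusted p = 2.33e-07), and PDGFC, a ligand of PDGF receptors, from 92 and 117 to 446 and 445 (2.01 ± 0.17, adjusted p = 8.06e-06). The other two were low: FGF21, a hepatokine, had 7 and 19 counts against 75 and 54, and NRG2, a neuregulin, was listed at 0 in both control libraries with 18 and 11 counts in sgUSP22 libraries. Neither reached 1 CPM in both libraries of a group, and both were named after their values were seen. NRG2 passed the filter on low counts only through the sgUSP22 libraries where it was high, and with a mean of at least 50 counts required the higher ligand genes numbered 2, so the share called is not read against the background.

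EPHA2, EPHB2 and CSF1R were each called lower along with a gene for one of their ligands. Of the 7 ephrin genes tested, 2 were called lower and 0 higher, beside 7.25% and 8.88% of all tested genes. The other ephrin genes tested were not called, and 3 had a log2 fold change above 0. EFNA1, the main ephrin-A ligand of EPHA2, fell from 7627 and 7819 counts to 3797 and 3411 (log2 fold change −1.18 ± 0.05 SE, edgeR adjusted p = 1.17e-07), and EFNB2, the ligand of EPHB4 and EPHB2, from 542 and 610 to 241 and 293 (−1.19 ± 0.15, adjusted p = 9.04e-05). CSF1, the ligand of CSF1R, had 1829 and 1907 counts against 1266 and 1224 (−0.66 ± 0.072, adjusted p = 4.13e-05), and was under the fold threshold after correction for GC content and length (−0.54). PDGFB, the gene for the PDGFRB ligand PDGF-BB, did not pass the test (0.03, adjusted p = 0.773). PDGFC differed in the direction opposite to PDGFRB, and the other PDGF receptor gene, PDGFRA, was listed at 0. Neither AXL ligand passed either, with GAS6 at −0.14 (adjusted p = 0.409) and PROS1 at 0.09 (adjusted p = 0.0693). NRG1, the ligand of ERBB3, had a log2 fold change of −0.49 (adjusted p = 0.000532) and not called. FGF2, by contrast, was higher with 12843 and 13348 counts against 17485 and 17597 (0.34, adjusted p = 2.71e-05), also under 1.5-fold.

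Also lower were GDF15, a stress cytokine that signals through RET with GFRAL (12150 and 12815 counts against 8665 and 8032, log2 fold change −0.66), BDNF, the NTRK2 ligand (2107 and 2336 against 1481 and 1539, −0.63), and HBEGF, an EGFR ligand (380 and 264 against 255 and 183, −0.64). RET was listed at 0 and NTRK2 had at most 8 counts in these libraries. GDF15 dropped below the fold threshold after correction for GC content and length (−0.44), as did HBEGF (−0.57). The edgeR adjusted p of HBEGF was 0.0339 and rose to 0.255 without control replicate 1 and to 0.195 without sgUSP22 replicate 2, and BDNF came to −0.58, under the fold threshold, without control replicate 2.

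**Figure D4:**
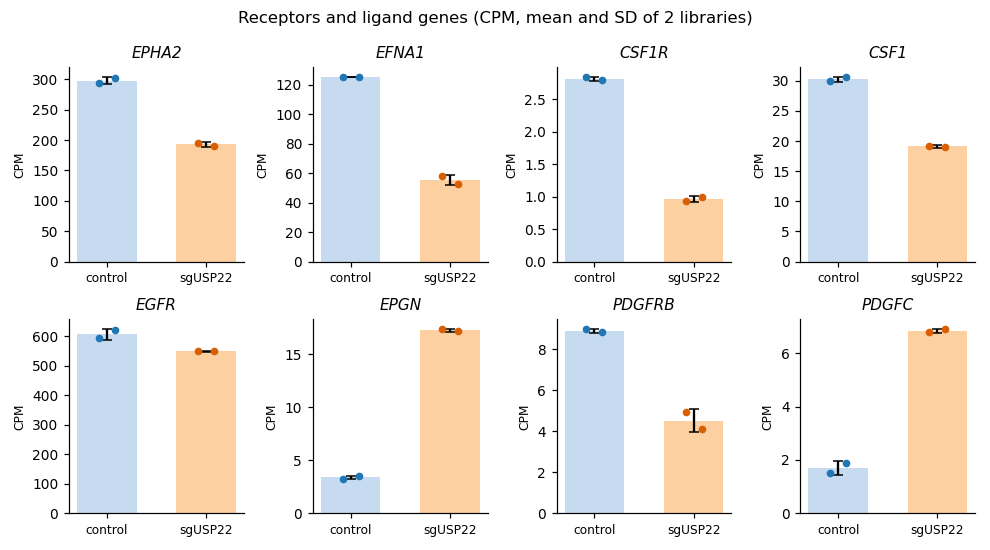
CPM of 4 receptors and 4 ligand genes of their families, with a point for each library and bars at the group mean with SD (n = 2 per group). EPHA2 with EFNA1 and CSF1R with CSF1 are lower in both sgUSP22 libraries, whereas EPGN (17.3 ± 0.152 against 3.39 ± 0.163 CPM) and PDGFC (6.84 ± 0.075 against 1.69 ± 0.259 CPM) are higher. PDGFRB is lower, and EGFR is lower by too little to be called (log2 fold change −0.14).

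Downstream of the receptors, adaptor and proximal enzyme genes divided between the directions. Of 33 listed, 29 were tested, 5 rose and 3 fell (27.6% called, beside 16.1% of all tested genes, with 8.88% higher and 7.25% lower, and a median log2 fold change of 0.12). Those that rose were the PI3K regulatory subunits PIK3R1 (408 and 350 counts against 1077 and 1086, log2 fold change 1.43 ± 0.12 SE, edgeR adjusted p = 5.89e-06) and PIK3R3 (1180 and 1149 against 2438 and 2442, 0.99 ± 0.069, adjusted p = 2.5e-06), the phospholipase PLCG2 (1964 and 1960 against 4678 and 4446, 1.14 ± 0.051, adjusted p = 1.77e-07) and the RAS exchange factors SOS2 (0.89) and SOS1 (0.74). The SOS1 change was under 1.5-fold after correction for GC content and length (0.55). GAB2, a docking protein, fell from 5555 and 5899 counts to 3650 and 3582 (−0.74 ± 0.044, adjusted p = 9.23e-07). The lowly expressed adaptors FRS3 (−0.91, adjusted p = 0.00809) and DOK7 (−0.63, adjusted p = 0.0197) also fell, but without control replicate 2 neither passed (adjusted p = 0.081 and 0.148), nor did DOK7 without sgUSP22 replicate 1 (adjusted p = 0.0864). GRB2, the adaptor most receptors share, had 9346 and 9559 counts against 9197 and 8446 (−0.18, adjusted p = 0.00533) and was not called.

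Regulator genes, whose products restrain receptors, bind them as adaptors or shed their ligands, numbered 22. Of these, 20 were tested, 1 rose and 3 fell (20% called, near the 16.1% of all tested genes, with a median log2 fold change of 0.07). LRIG1, which drives ERBB receptors to degradation, fell from 2677 and 2558 counts to 1455 and 1311 (log2 fold change −1.0 ± 0.072 SE, edgeR adjusted p = 2.95e-06), and ERRFI1, an inhibitor of the EGFR kinase domain, from 4264 and 4476 to 2537 and 2496 (−0.87 ± 0.048, adjusted p = 6.09e-07). GRB7, an adaptor that binds ERBB2 and lies beside it on chromosome 17, had 3505 and 3814 counts against 2167 and 2163 (−0.84 ± 0.055, adjusted p = 1.72e-06). ADAM17, the protease that sheds ERBB ligands, rose from 3945 and 4073 counts to 7036 and 6966 (0.73 ± 0.041, adjusted p = 6.37e-07), a change that fell under 1.5-fold after correction for GC content and length (0.49). Among 17 co-receptors 8 were tested and 1 was called (12.5%, beside 16.1% of all tested genes): NRP2, a semaphorin and VEGF-C co-receptor, with 5511 and 5625 counts against 4037 and 3403 (−0.66 ± 0.065, adjusted p = 2.27e-05), which came to −0.56 without sgUSP22 replicate 2. Its paralog NRP1 differed the other way with 968 and 962 counts against 1375 and 1296 (0.39, adjusted p = 0.00302) and was not called.

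**Figure D5:**
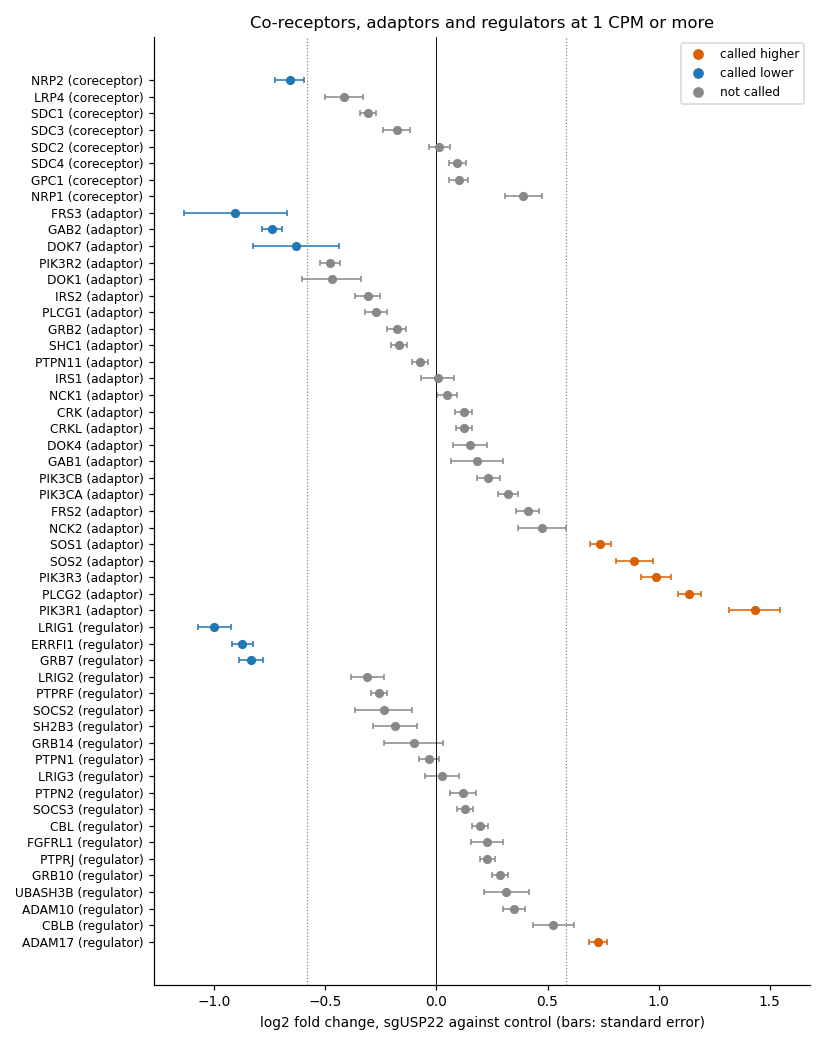
Log2 fold change of sgUSP22 over control with its standard error for the co-receptor, adaptor and regulator genes at 1 CPM or more, coloured by call. Among the called genes, PIK3R1 (1.43) is the highest and LRIG1 (−1.0) the lowest.

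The place of the receptors in the genome was set beside their values. PDGFRA, KIT and KDR, which follow each other on chromosome 4 with 359 kb and 338 kb between neighbours, were all listed at 0, and FLT1 and FLT3, 200 kb apart on chromosome 13, were at trace level and 0. TYRO3 and LTK, by contrast, lie 43.8 kb apart on chromosome 15 with up to 3280 and 13 counts. Over the 27 expressed receptors, Spearman's rho of the log2 fold change was −0.0092 with gene span, 0.043 with GC content and −0.020 with exon length, beside 0.11, −0.24 and 0.16 over 14384 tested genes. These are descriptions across genes, which share libraries and depth and are not independent. Strand-specific counting was not given in the sources used here, so reads could not be assigned between ERBB2 and the opposite-strand genes MIEN1 (1693, 1645, 1311 and 1171 counts) and PGAP3, between FGFR1 and LETM2, between EPHB4 and SLC12A9, or between EGFR and EGFR-AS1 (60, 51, 33 and 34 counts).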

How the data were processed

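RNA-seq reads were aligned by the authors to hg38 with HISAT2 2.2.1, and the deposited whole-number counts per gene were assembled with StringTie 2.2.1 (DESeq2 1.34.0 was their test). The gene annotation and read strand are not given in the sources used here. All 4 count columns were used (0 not used). Totals, 62030307 to 64728272 counts, set the precision, and intervals and floors (3 counts) cover counting error only.

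Counts were normalised by TMM in edgeR 4.0.16 (R 4.3.3), filtered with filterByExpr (minimum count 10) and tested by the quasi-likelihood test with Benjamini-Hochberg adjustment over all 15150 genes kept. Thresholds were 0.05 and 1.5-fold. SE was taken as the size of the log2 fold change over the square root of F. The code was tested on simulated data. Expressed means 1 CPM in both libraries of a group. Exon lengths and positions came from GENCODE v44, in which 25763 of 28278 symbols and all 51 receptors matched, and promoter windows from RefSeq, in which 46 receptors matched. Protein sequences were not used here.

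Every receptor tested could be named. From the ligand, co-receptor, adaptor and regulator lists, called genes at 1 CPM and the main ligands of expressed receptors were named. Receptors and lists were chosen with earlier results of these data known. Replicate numbers were tested for pairing: deviations of same-numbered libraries correlated at 0.0782, and nothing in the labels ties a number to a batch, so libraries were not paired. Replicates differed by more than sampling noise (chi-square per gene 7.91 in control, 8.44 in sgUSP22). Alternatives were DESeq2 1.42.0, RLE size factors, scaling by library size only, testing without the filter, a minimum mean of 50 counts, edgeR's glmTreat, no fold threshold, a GC content and length correction, a replicate block and leaving out each library.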

Additional observations from a re-analysis of the deposited data

How the results depend on the processing

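With 2 libraries a group and one contrast, the receptor counts rest on little replication, and a leave-one-out fit leaves 1 library in a group, assumed to vary like the other group. PDGFRB, CSF1R, ERBB3, AXL, ROR1 and DDR2 kept their call in all 12 alternative settings. When a library was left out, the receptors called changed. EPHB2 then ranged from −0.79 to −0.58 in log2 fold change, EPHA10 from 0.45 to 0.91, EPHB3 from 0.47 to 1.44 and IGF1R from 0.57 to 0.59. Higher receptors numbered 1 with DESeq2, without the filter and with glmTreat, and 8 with no fold threshold. With the replicate block the same 2 and 7 receptors were called. All genes numbered 578 higher and 428 lower with glmTreat and 4057 and 3904 with no fold threshold, against 1345 and 1098, and 1158 to 1400 and 995 to 1139 with a library left out. With no fold threshold 2 Sorafenib targets, 9 ligands, 1 co-receptor, 11 adaptors and 9 regulators were higher, and 10 ligands, 4 co-receptors, 9 adaptors and 5 regulators were lower. With glmTreat 2 ligands, 0 co-receptors and 1 adaptor were lower. A mean of at least 50 counts left 2 ligands higher, and the GC content and length correction 0 regulators higher. Leaving out a library gave 3 to 5 ligands higher and 5 to 7 lower, 0 to 1 co-receptors lower, 1 to 3 adaptors lower and 1 to 2 regulators higher. After the GC content and length correction the log2 fold changes of FGFR3 (0.0075), FGFR4 (0.0415) and RYK (−0.0884) turned sign. Of 549 comparisons of a named gene with another setting, 517 kept direction and side of the p threshold, 23 lost and 6 gained the threshold. Causes were not tested beyond what each alternative changes by construction.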
